A study of Mus musculus with 18 samples.

Results

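Regions bound by the nuclear factor I (NFI) proteins NFIA and NFIB inside very long genes numbered 2178, which was 5.19% of the 41987 bound regions found on the autosomes in mouse cerebellar cells on the way to medulloblastoma. A region was a merged stretch of the 30000 highest-scoring peak summits of each library, widened by 100 bp on each side, that held a top summit in at least 3 of 18 libraries. A region counted as inside a very long gene when its midpoint lay in the span of a protein-coding gene of at least 500 kb and more than 1 kb from either end. Of the 216 such genes on the 19 autosomes, 203 held at least 1 region and 13 held none, and 29 regions lay in more than 1 of them. The gene table holds no exons, so exonic and intronic regions were not told apart.

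CUT&Tag, which cuts and tags DNA beside an antibody-bound protein, was run for NFIA and for NFIB on cells purified by Percoll gradient, and each library used 100000 of them. The GNP group was granule neuron progenitors of postnatal day 7, the hyperplasia group was hyperplastic cells of day 28, called PNCs in the protocol, and the tumor group was medulloblastoma of adult mice. Each stage had 3 preparations, each with 1 NFIA and 1 NFIB library, 6 libraries a stage. The study followed NFI binding as these tumors form. Its design text names a genetically engineered mouse model, and genotype, strain and tumor-driving allele are not given in the sources used here, for the GNP group either. Age rose with stage, so that the 2 cannot be told apart. Nothing says that preparations came from separate animals, so p-values speak only of the variation among preparations, whose source may be technical.

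NFI proteins are transcription factors that bind as dimers to a palindrome (TTGGC, 5 bases of any kind, then GCCAA), or more weakly to TTGGC alone. In the cerebellum they act in granule neuron progenitors, the cells from which Sonic hedgehog medulloblastoma arises, during the passage from dividing progenitor to migrating and maturing neuron. Very long genes are known in the brain for encoding cell adhesion molecules, synaptic proteins and ion channels. Their introns hold many distal regulatory elements, and several of the longest span common fragile sites, where replication is late and breaks recur.

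Few regions inside very long genes overlapped an annotated start, and regions within 1 kb of the ends of the gene were left out beforehand. Of the 2178, 51 (2.34%) overlapped a RefSeq promoter window, which runs from 250 bases before to 50 after a start. The distance to the nearest start was not measured. Of the 51, 38 lay at a further start of the gene that held them, in 36 genes. Such windows with a region hit by all 18 libraries lay in 3 genes and are printed first, those of the scaffold genes Magi2 and Magi1, which organise synaptic and junctional complexes, and of the protocadherin gene Pcdh9, of whose 2 overlapping windows the first is shown. The window inside Nfia, which encodes a mapped factor itself, is printed beside them because of that role. Its region was hit by 15 libraries. Sequences are from RefSeq, assembly GRCm38.p6, 5′ to 3′ on the gene strand, with every TTGGC or its reverse complement GCCAA in capitals.
Magi2 promoter, chr5:19226796-19227095, + strand: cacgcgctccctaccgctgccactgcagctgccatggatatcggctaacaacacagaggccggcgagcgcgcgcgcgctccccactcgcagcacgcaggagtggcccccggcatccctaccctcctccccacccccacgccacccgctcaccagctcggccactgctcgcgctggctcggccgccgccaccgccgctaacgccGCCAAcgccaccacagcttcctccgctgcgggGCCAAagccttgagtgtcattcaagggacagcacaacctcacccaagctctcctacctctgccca
Magi1 promoter, chr6:93912914-93913213, - strand: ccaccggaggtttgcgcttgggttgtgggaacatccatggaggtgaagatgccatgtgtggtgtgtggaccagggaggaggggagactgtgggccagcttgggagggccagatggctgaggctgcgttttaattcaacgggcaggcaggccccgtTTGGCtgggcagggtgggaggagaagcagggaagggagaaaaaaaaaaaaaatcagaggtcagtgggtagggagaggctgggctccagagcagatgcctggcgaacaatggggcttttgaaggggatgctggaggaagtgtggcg
Pcdh9 promoter, chr14:93890630-93890929, - strand: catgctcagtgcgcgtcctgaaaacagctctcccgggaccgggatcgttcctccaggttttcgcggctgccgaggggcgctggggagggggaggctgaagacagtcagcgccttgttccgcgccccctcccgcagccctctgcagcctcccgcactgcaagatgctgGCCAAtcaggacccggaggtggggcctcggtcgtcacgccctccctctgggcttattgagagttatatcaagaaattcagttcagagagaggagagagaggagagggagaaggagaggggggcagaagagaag
Nfia promoter, chr4:97581693-97581992, + strand: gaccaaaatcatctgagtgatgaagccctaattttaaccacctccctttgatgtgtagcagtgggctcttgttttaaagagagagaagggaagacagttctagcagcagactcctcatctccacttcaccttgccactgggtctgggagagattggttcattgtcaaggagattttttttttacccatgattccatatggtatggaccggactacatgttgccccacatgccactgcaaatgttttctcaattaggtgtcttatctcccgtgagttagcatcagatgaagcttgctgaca
Magi2 held 2 capital motifs, of which 1 lay within the bound region, Magi1 and Pcdh9 held 1 each within theirs, and Nfia held none. Among the 61 windows overlapped by a region inside a very long gene, 30 (49.2%) held TTGGC on either strand, against 46.7% of the 31365 promoter windows on the autosomes. TGCCA on either strand was in 52.5% of the 61 and in 48.8% of all, and may overlap TTGGC where the letters run together. No window of the 61 held the full palindrome, which was in 12 windows (0.0383%) of all. A match is a description of the letters and not a measured site.

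Across libraries, 49166 to 374375 summits were listed on the autosomes, and depth is unknown because the lists hold no reads. Between 17075 and 25224 regions were hit per library, a hit being a region that holds a top summit of that library. The second NFIA library of hyperplasia stood apart, with 783 regions hit inside very long genes where the other 17 libraries had 977 to 1240. Chromosome 6 took 6.55% to 7.03% of the hits in tumor libraries, 5.22% to 5.54% in GNP and 5.40% to 5.90% in hyperplasia. Marker genes of the labelled cells carried top summits in every preparation. For the 9 granule progenitor markers, Atoh1, Barhl1 and Zic1 among them, the summed summits within 100 kb were 102 to 112 in GNP, 77 to 90 in hyperplasia and 96 to 102 in tumors. The 6 granule neuron markers had 83 to 93, 72 to 80 and 74 to 87. Sums for other cells were lower, but the lists differ in size, so that sums are not on 1 scale. Astrocytes and Bergmann glia (6 markers) had 29 to 39, 31 to 44 and 25 to 39, with Aqp4 at 0. Microglia (5 markers) had 0 to 1, 0 to 4 and 0 to 2, with Aif1 and P2ry12 at 0. The oligodendrocyte lineage (5 of 6 markers matched) had 30 to 35, 25 to 38 and 32 in each. Purkinje cells and interneurons (7 markers) had 10 to 13, 10 to 12 and 9 to 10, with Pcp2 at 0. Vascular and meningeal cells (5 markers) had 13 to 18, 10 to 13 and 15 to 19. Their part in the results below was not tested.

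Very long genes were thinly covered for their length. Their bodies held 12.1 regions per Mb over 179.7 Mb, against 20.6 per Mb in the bodies of all other genes. The density lay between 19 and 21.3 per Mb for every length class from 2 to 500 kb, was 15 from 500 to 800 kb and was 10 from 800 kb up. Regions hit by all 18 libraries were also thinner in very long genes, with 1.22 per Mb and 2.68 in other gene bodies. Their density was 2.69 to 2.87 in the classes up to 300 kb and already lower, 2.04, from 300 to 500 kb. These are counts over the genome with no replicate error.

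**Figure D1:**
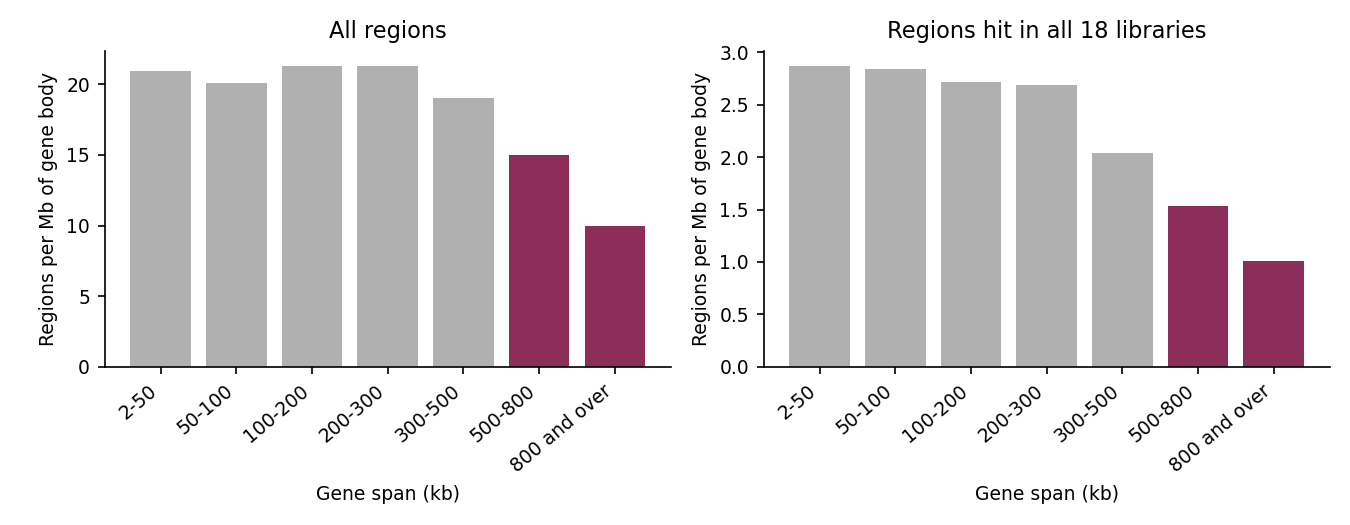
Regions per Mb of gene body (y axis) by gene span in kb (x axis), for all regions (left) and for regions hit in all 18 libraries (right), with very long genes in purple. On the left the bars stay between 19 and 21.3 up to 500 kb and drop to 15 and 10 in the 2 longest classes. On the right they stay between 2.69 and 2.87 up to 300 kb and then drop to 2.04, 1.53 and 1.01.

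Regions inside very long genes were also shared by fewer libraries. All 18 libraries hit 220 of them (10.1%), against 12.9% of the 15510 regions inside other genes, 22.1% of the 9480 regions within 1 kb of a gene end and 12.2% of the 14819 regions between genes. Regions with hits in only 3 to 5 libraries made up 34.8%, against 29.0% of all other regions. The median region inside a very long gene was hit by 8 libraries and the median of all others by 10. At least 1 library of every stage hit 1416 of them (65.0%, against 72.9% of the others), 68 were hit in GNP alone (3.12% against 2.06%) and 282 in hyperplasia and tumor but not in GNP (12.9% against 9.97%). Both targets hit 2095 of the 2178 (96.2%). The need for 3 of 18 libraries, 9 of each target, makes a high share likely beforehand, and the share over all regions is not given. For 6 of 18 libraries the deposited name and the title also disagree on the target.

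Regions that ranked high in every library lay in Sdk1, Auts2, Dlgap1, Pde1c and Dab1, the 5 whose poorest rank among a library's summits was best. The region in Sdk1, an adhesion gene that matches synaptic partners, led with a rank of 253 or better in each library (chr5:142096466-142096774). The next lay in the neurodevelopmental regulator gene Auts2 (chr5:131573772-131574090, rank 351) and in Dlgap1, which encodes a scaffold of excitatory synapses (chr17:70488911-70489244, rank 379). Pde1c, a calcium-dependent phosphodiesterase gene, followed at chr6:56560533-56560903 with a rank of 640, and Dab1, which relays the Reelin signal to migrating neurons, at chr4:103922517-103922870 with a rank of 798. None of these 5 overlapped a promoter window.

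Along the gene, regions were spread over the whole body. In the 160 genes with a known strand and at least 1 region, 19.8% lay in the first 20% of the gene, 18.7%, 17.1% and 21.4% in the following parts and 23.0% in the last. The share hit by all 18 libraries was 13.1% in the first part and 8.13% to 9.54% in the others. Neighbouring regions of a gene lay a median of 29.0 kb apart, 10.6% of the 2014 gaps were under 5 kb and 6.26% were over 200 kb.

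The genes differed widely in how many regions they held. The median was 8, 65 genes held 1 to 5 and 28 genes held 20 or more, and the 10 genes with the most held 359 regions (16.5%). Over the 216 genes the number of regions and the span had a Pearson r of 0.18 and a Spearman rho of 0.19, given as a description since genes share all their libraries. Camta1, which encodes a calmodulin-binding transcription activator (chr4:151059523-151861768), held 51 regions, 63.6 per Mb, of which 6 were hit by all 18 libraries. Nav2, a neuron navigator gene involved in neurite growth, held 41 (63.0 per Mb). Auts2 held 40, and its 10 regions hit by all 18 libraries were more than in Nfia or Tenm4, with 8 each. Cdh13 (36), Slit3 (34), Tenm4 (34), Nfia (32), Ntm (31), Asic2 (30) and Lsamp (30) completed the 10. By density the list was led by Camta1 and Nav2, then Nfia (59.2 per Mb), the axon guidance ligand gene Slit3 (57.9) and the adhesion gene Kirrel3 (50.5). Sntg1, Spag16, Malrd1, Skint5 and Zfp804b were among the 13 genes with no region.

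**Figure D2:**
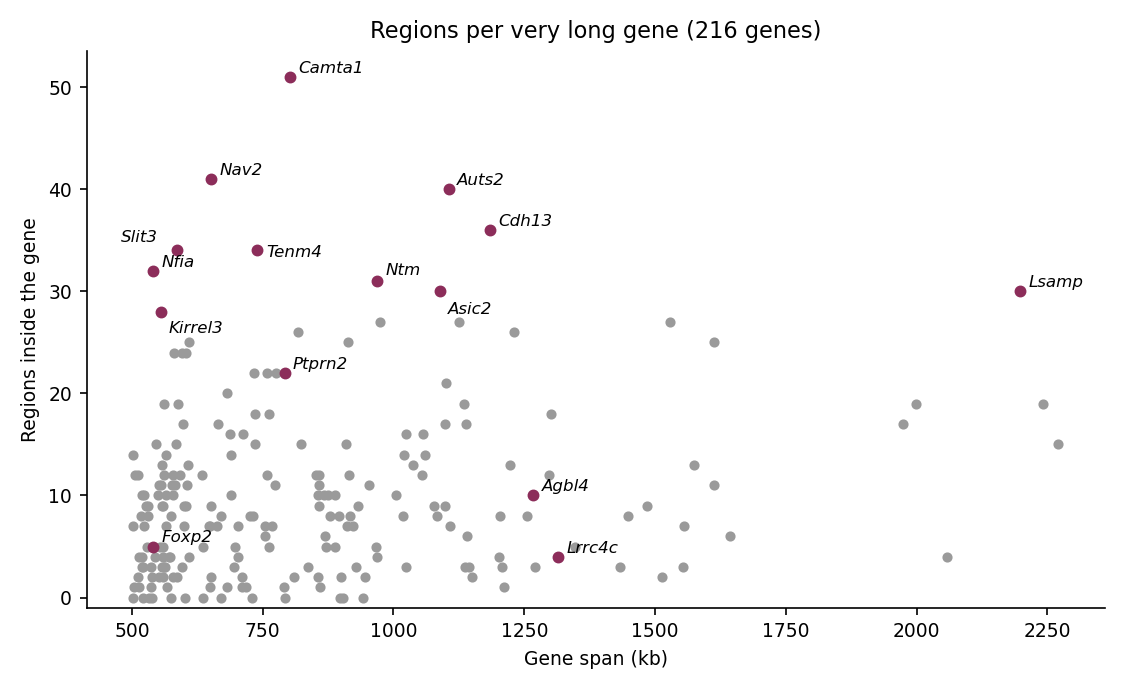
Regions inside each of the 216 very long genes (y axis) against gene span in kb (x axis), 1 point a gene, with the 10 richest genes, Kirrel3 and 4 genes described in the text named. Camta1, with 51 regions, and Nav2, with 41, are shorter than Lsamp, which spans 2197 kb and holds 30.

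Nfia, which encodes a mapped factor, was the third densest, and its region hits overlapped between all stages. Its 541 kb (chr4:97578066-98118876, + strand) held 32 regions, 8 of them hit by all 18 libraries. The preparations had 39, 40 and 36 region hits in GNP, 38, 36 and 43 in hyperplasia and 39, 47 and 39 in tumors, where region hits are the hits of a preparation's NFIA and NFIB libraries added over the regions of a gene. The groups overlapped, and limma gave adjusted p of 1.00 for hyperplasia against GNP and 0.693 for tumor against GNP. Its promoter window printed above was hit by 6 GNP, 3 hyperplasia and 6 tumor libraries.

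Grouped by what the genes do, transcription and RNA regulators were the densest of 6 lists, which share some genes. The 18 very long genes of this list held 300 regions over 13.7 Mb, 21.9 per Mb. Camta1, Auts2 and Nfia held 51, 40 and 32 of these, and the splicing regulator gene Rbfox1 27, so that a few genes gave much of this density. Density also fell with gene span, from 15 per Mb at 500 to 800 kb to 10 above, and the lists were not matched for span. The other lists lay between 10.6 and 12.4 per Mb, near the 12.1 of all very long genes. Adhesion molecules and synapse organisers, with Cdh13, Tenm4, Ntm and Lsamp leading, held 574 regions in 46 genes (11.4 per Mb). Axon guidance and growth signalling genes, with Slit3, Dab1, the receptor kinase gene Alk and Dock1, held 190 in 18 genes (11.3 per Mb). Channels and neurotransmitter receptors, with the acid-sensing channel gene Asic2, the calcium channel genes Cacna2d3 and Cacna1c and the glutamate receptor gene Grid1, held 193 in 22 genes (10.8 per Mb). Phosphatases, phosphodiesterases, kinases and scaffolds, with Wwox, Ptprn2, Pde4d and Ptprt, held 278 in 26 genes (12.4 per Mb). The 27 very long genes of known common fragile sites, with Auts2, Lsamp, Dab1 and Wwox, held 352 (10.6 per Mb). All 18 libraries hit 13.7% of the regions of the transcription list and 12.2% of the fragile site list, against 7.19% of the phosphatase and scaffold list and 7.89% of the axon guidance list.

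The share of hit regions that lay inside very long genes differed between stages by less than the spread among the hyperplasia preparations. Of all regions hit, 4.73%, 4.75% and 4.79% lay inside very long genes in the GNP preparations, 4.54%, 4.61% and 4.85% in hyperplasia and 4.69%, 4.74% and 4.77% in tumors. The means were 4.76% ± 0.0268 (SD, n = 3), 4.67% ± 0.163 and 4.73% ± 0.0398. The difference of −0.0861 percentage points in hyperplasia against GNP was larger than the SD of the GNP preparations. The exact two-sided permutation test gave p = 0.400 between GNP and hyperplasia, 0.5 between GNP and tumor and 0.600 between hyperplasia and tumor, each with an adjusted p of 0.600 over the 3 comparisons, and the smallest p that 3 against 3 preparations allow is 0.1. GNP and hyperplasia share 2 title dates, and the difference between them was −0.163 percentage points within the first date (2 preparations a stage) and 0.0681 within the second (1 a stage). Tumors have dates of their own, which cannot be told apart from the stage. NFIA libraries had a median share of 4.71% and NFIB libraries of 4.70%.

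Individual regions inside very long genes were gained and lost between stages. A region was taken as gained when at least 5 of 6 libraries of the later stage and at most 1 of 6 of the earlier hit it, and as lost in the opposite case, with no test. From GNP to hyperplasia 55 regions inside very long genes were gained (2.53%, where 2.16% of all regions were) and 74 were lost (3.40%, where 2.77% of all were). From GNP to tumor 65 were gained (2.98% against 2.28%) and 86 lost (3.95% against 2.54%). Between hyperplasia and tumor 32 were gained (1.47% against 1.21%) and 35 lost (1.61% against 1.08%). The figure for all regions includes those within 1 kb of a gene end, of which 0.380% to 0.633% were gained and 0.876% to 1.66% lost. Of the regions inside shorter genes 2.37%, 2.84% and 1.68% were gained and 3.17%, 2.38% and 0.974% lost. Of those between genes 2.86%, 2.64% and 1.21% were gained and 3.47%, 3.06% and 1.15% lost, so that from GNP to hyperplasia both shares were higher between genes than inside very long genes. Within the first date 20 of the 2178 were hit in all 4 hyperplasia libraries and in none of the 4 of GNP (0.918%, against 0.753% of all regions), and 36 the other way round (1.65% against 1.20%). Within the second, with 2 libraries a stage, these were 131 (6.01% against 5.63%) and 141 (6.47% against 5.29%). With the low second hyperplasia NFIA library left out, 86 were gained from GNP to hyperplasia (3.95%, against 3.63% of all regions) and 60 were lost from hyperplasia to tumor (2.75% against 2.21%), so that the counts rose for all regions too. With the 15000 highest-scoring summits losses from hyperplasia to tumor turned, with 0.751% of the regions inside very long genes and 1.29% of all. Gains fell below those of all regions with NFIA libraries only in hyperplasia against GNP (1.15% against 1.34%), and in tumor against hyperplasia without chromosome 6 (1.04% against 1.09%) and without the first tumor preparation (3.58% against 3.60%).

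**Figure D3:**
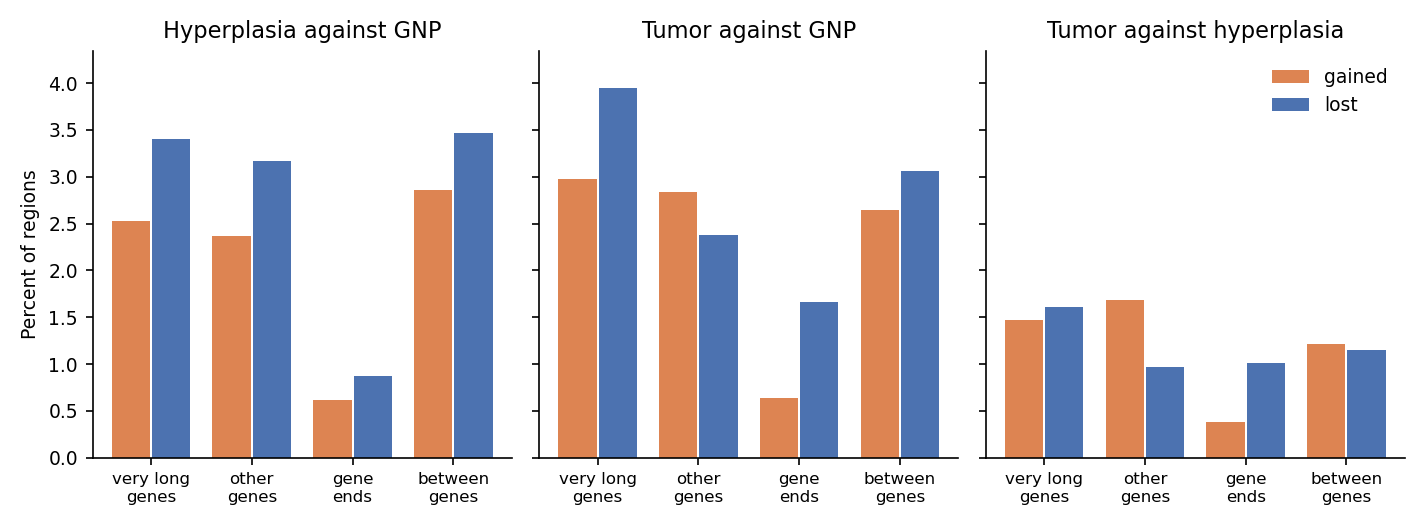
Percent of regions gained (orange) and lost (blue) in each comparison of stages (panels; y axis in percent of the regions of a class), for regions inside very long genes, inside other genes, within 1 kb of a gene end and between genes. In tumors against GNP the lost share inside very long genes, 3.95%, stands above the 2.38% inside other genes.

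Most regions lost in hyperplasia were scarce in tumors too, and fewer than a majority of the gained ones were hit by nearly all tumor libraries. Of the 55 regions gained there, 25 were hit by 5 or 6 tumor libraries (45.5%, against 35.4% of the 905 gained in all), 19 by 2 to 4 and 11 by at most 1 (20% against 18.5%). Of the 74 lost there, 49 were hit by at most 1 tumor library (66.2%, against 46.1% of the 1162 lost in all), 19 by 2 to 4 and 6 by at least 5 (8.11% against 11.4%). Hits in at least 5 libraries of GNP and of hyperplasia and in at most 1 of tumors were seen for 12 regions (0.551%, against 0.264% of all regions), and 16 had the opposite pattern (0.735% against 0.429%). These shares are a description, with no test. All comparisons with GNP share its libraries, and those with hyperplasia share its own.

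Gains and losses were scattered over many genes. The 86 regions lost in tumors lay in 63 genes, 45 of which lost 1, and the 65 gained in tumors lay in 43 genes, 28 of which gained 1. Asic2 gained 5 regions from GNP to tumor and 4 from GNP to hyperplasia and lost none, while its region hits, 31, 28 and 29 in GNP and 26, 32 and 33 in tumors, overlapped. Slit3 gained 4 in tumors and lost none, with 30, 33 and 33 region hits in GNP and 35, 41 and 41 in tumors. Erc2, which encodes a scaffold of the presynaptic active zone, exchanged regions, with 3 lost and 2 gained from GNP to tumor. Lsamp, an adhesion gene of limbic neurons, lost 3 and gained 1, and Camta1 gained 3 and lost 2. Agbl4 lost the most, 4 regions from GNP to tumor and the same number from hyperplasia to tumor.

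The clearest single regions showed the exchange at full contrast. In Ptprn2, which encodes a membrane protein of secretory granules, chr12:116576649-116577315 was hit by no GNP library and by all 6 of hyperplasia and of tumors. In Galntl6 (chr8:57806745-57807423) and Hs6st3 (chr14:119671137-119671522), genes of glycan-modifying enzymes, a region was hit by no GNP and all 6 hyperplasia libraries, and by 3 and 5 of tumors. Losses in hyperplasia of the same size, from all 6 GNP libraries to none, were at chr4:128489593-128490048 in Csmd2, chr1:20069691-20070038 in Pkhd1 and chr11:36073979-36074382 in the teneurin gene Tenm2. The Tenm2 region was hit again by 3 tumor libraries, that of Csmd2 by 1 and that of Pkhd1 by none.

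In tumors, regions hit by no GNP library and by all 6 tumor libraries included chr13:8538263-8538935 in Adarb2, a gene of the RNA-editing enzyme family, chr6:99364353-99364926 in the forkhead factor gene Foxp1 and chr12:66640217-66640930 in the adhesion gene Mdga2. Hyperplasia was in between for these 3, with 4, 4 and 5 libraries. The opposite pattern, all 6 GNP libraries and no tumor library, was at chr4:111597393-111597665 and chr4:111484859-111485474 in Agbl4 and at chr1:126484645-126485071 in Nckap5. The first of these was hit by 2 hyperplasia libraries, the second by 5 and that of Nckap5 by 4.

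Other regions set tumors apart from hyperplasia. All 6 tumor libraries and no hyperplasia library hit chr6:77848775-77849395 in the alpha-N-catenin gene Ctnna2, chr5:127885706-127886287 in Tmem132d and chr6:33870556-33870958 in the exocyst gene Exoc4. GNP libraries hit the first of these in no case and the other two in 3 each. In Cacna2d3, chr14:29672552-29672912 was hit by all 6 hyperplasia libraries and by no library of the other stages. All 6 hyperplasia and no tumor libraries hit chr14:23014755-23015240 in Lrmda and chr7:50338205-50338569 in Nell1, with 5 and 6 GNP libraries.

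Region hits per gene were then compared between stages with limma on log2(region hits + 0.5), in 1 fit over the 9 preparations and 3100 genes, of which 179 were very long. The fold changes below are on this scale, which understates the change of genes with few hits. A region had to be hit by 3 libraries, so that a region with no hit in a stage was kept through the other stages alone. Such regions are no separate support for a call. Between GNP and hyperplasia 3 of the 179 passed an adjusted p of 0.05 (1.68%, where 1.58% of all genes did), between GNP and tumor 3 (1.68%, against 1.58%) and between hyperplasia and tumor 2 (1.12%, against 0.645%). Calls of 2 or 3 genes are too few to set very long genes apart from the others. Unadjusted limma p below 0.05 was seen for 26 (14.5%), 38 (21.2%) and 20 (11.2%) of them, against 15.7%, 16.0% and 10.7% of all genes tested. The median log2 fold change of the very long genes was −0.05, −0.00 and 0.04, and that of all genes 0.00, 0.00 and 0.01. Of the 49, 49 and 20 genes called in all, 8, 12 and 10 had no spread within any stage, which small whole numbers allow.

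Genes whose preparations did not overlap were counted next. Between GNP and tumor all 3 tumor preparations lay below all 3 of GNP in 28 of the 179 genes (15.6%, against 7.03% of all tested) and above in 16 (8.94%, against 7.65%). Between GNP and hyperplasia 20 lay below (11.2%, against 8.29%) and 7 above (3.91%, against 5.0%). Between hyperplasia and tumor 10 lay below (5.59%, against 1.97%) and 12 above (6.70%, against 5.97%). Very long genes have more hits, with a median of 10.1 a preparation where the other tested genes have 3.44. Among genes with a mean of at least 8 hits, 18 of 112 very long genes (16.1%) and 42 of 410 others (10.2%) lay below in tumors against GNP, and 4 (3.57%) and 5 (1.22%) in tumors against hyperplasia. In hyperplasia against GNP, in the same genes, the share below turned, with 12.5% of the very long and 16.6% of the others. The share above turned in tumors against GNP, with 7.14% of the very long and 9.51% of the others. It also turned in tumors against hyperplasia, with 6.25% and 12.4%. In hyperplasia against GNP the share above stayed lower in very long genes, with 3.57% and 3.90%.

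From GNP to hyperplasia region hits rose in 1 very long gene (0.774% of all tested genes rose) and fell in 2 (0.806% of all). Foxp2, which encodes a forkhead repressor of neuronal development (chr6:14901349-15441977), had 2 hits in each GNP preparation and 5, 4 and 6 in hyperplasia. No hyperplasia preparation was as low as GNP, with a log2 fold change of 1.12 (SE 0.19) and an adjusted p of 0.0489 (limma). Clstn2, a calsyntenin gene of postsynaptic membranes (chr9:97444395-98033373), had 27, 25 and 27 hits in GNP and 17, 19 and 19 in hyperplasia. It fell by 0.51 on the log2 scale (SE 0.08, limma adjusted p 0.0420), and its tumors, at 23, 20 and 24, lay between these groups. Lrba, which encodes a vesicle-trafficking protein (chr3:86223456-86782694), had 7 hits in every GNP preparation and 5, 4 and 4 in hyperplasia. It fell by 0.64 (SE 0.09, limma adjusted p 0.0399), with 6, 6 and 7 in tumors. All 3 calls were near the threshold. Each was lost in 8 of the 9 fits that left out 1 preparation, where limma adjusted p reached 0.145 for Foxp2, 0.127 for Clstn2 and 0.113 for Lrba, and with the title date as a block (0.126, 0.126 and 0.185). All 3 were also lost with 45000 summits (0.133, 0.489 and 0.519) and with all top summits in the gene body (0.225, 0.0757 and 0.193). Scaling to equal totals lost Clstn2 (0.102) and Lrba (0.0525). Of the alternatives in which each was fitted, Foxp2 was called in 8 of 26, Clstn2 in 9 of 28 and Lrba in 6 of 27.

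Other very long genes had separate groups without a call in this comparison. Erc2 had 13, 12 and 11 hits in GNP and 6, 3 and 6 in hyperplasia (log2 fold change −1.24, SE 0.24, limma adjusted p 0.0784), and with the second hyperplasia preparation left out its adjusted p was 0.0100. Foxp1, a forkhead factor gene like Foxp2, had 13, 13 and 16 hits in GNP and 23, 18 and 22 in hyperplasia (0.57, SE 0.14, limma adjusted p 0.121). The phosphodiesterase gene Pde4b had 8, 7 and 7 against 9, 11 and 11 (limma adjusted p 0.0801), and without the first hyperplasia preparation its adjusted p was 0.0368. Adjusted p was 0.0895 for A830018L16Rik, an uncharacterised gene, and 0.104 for the synaptic adhesion gene Cadm2 (limma).

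From GNP to tumor, 1 very long gene, Foxp2, rose (1.03% of all tested genes did) and 2, Sugct and Lrrc4c, fell (0.548% of all). From hyperplasia to tumor none of the 179 rose, where 0.419% of all did, and 2, again Sugct and Lrrc4c, fell, where 0.226% of all did. Foxp2 had 5, 7 and 8 hits in tumors against 2 in each GNP preparation (log2 fold change 1.5, SE 0.19, limma adjusted p 0.0153). Its region at chr6:15299387-15299801 was hit by 6 GNP, 6 hyperplasia and 5 tumor libraries, and the other 4 regions of the gene by no GNP library. These 4 therefore met the need for 3 libraries only through hyperplasia and tumor libraries. With all top summits in the gene body counted, which sets no such need, Foxp2 was not called (limma adjusted p 0.140). Hits beside the gene were higher in the later stages as well. In the 500 kb before its lower coordinate 4 regions had 4 hits in each GNP preparation, 5 to 7 in hyperplasia and 5 to 7 in tumors, and in the 500 kb past its upper coordinate 3 regions had 1 to 2, 2 to 4 and 4 to 6.

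**Figure D4:**
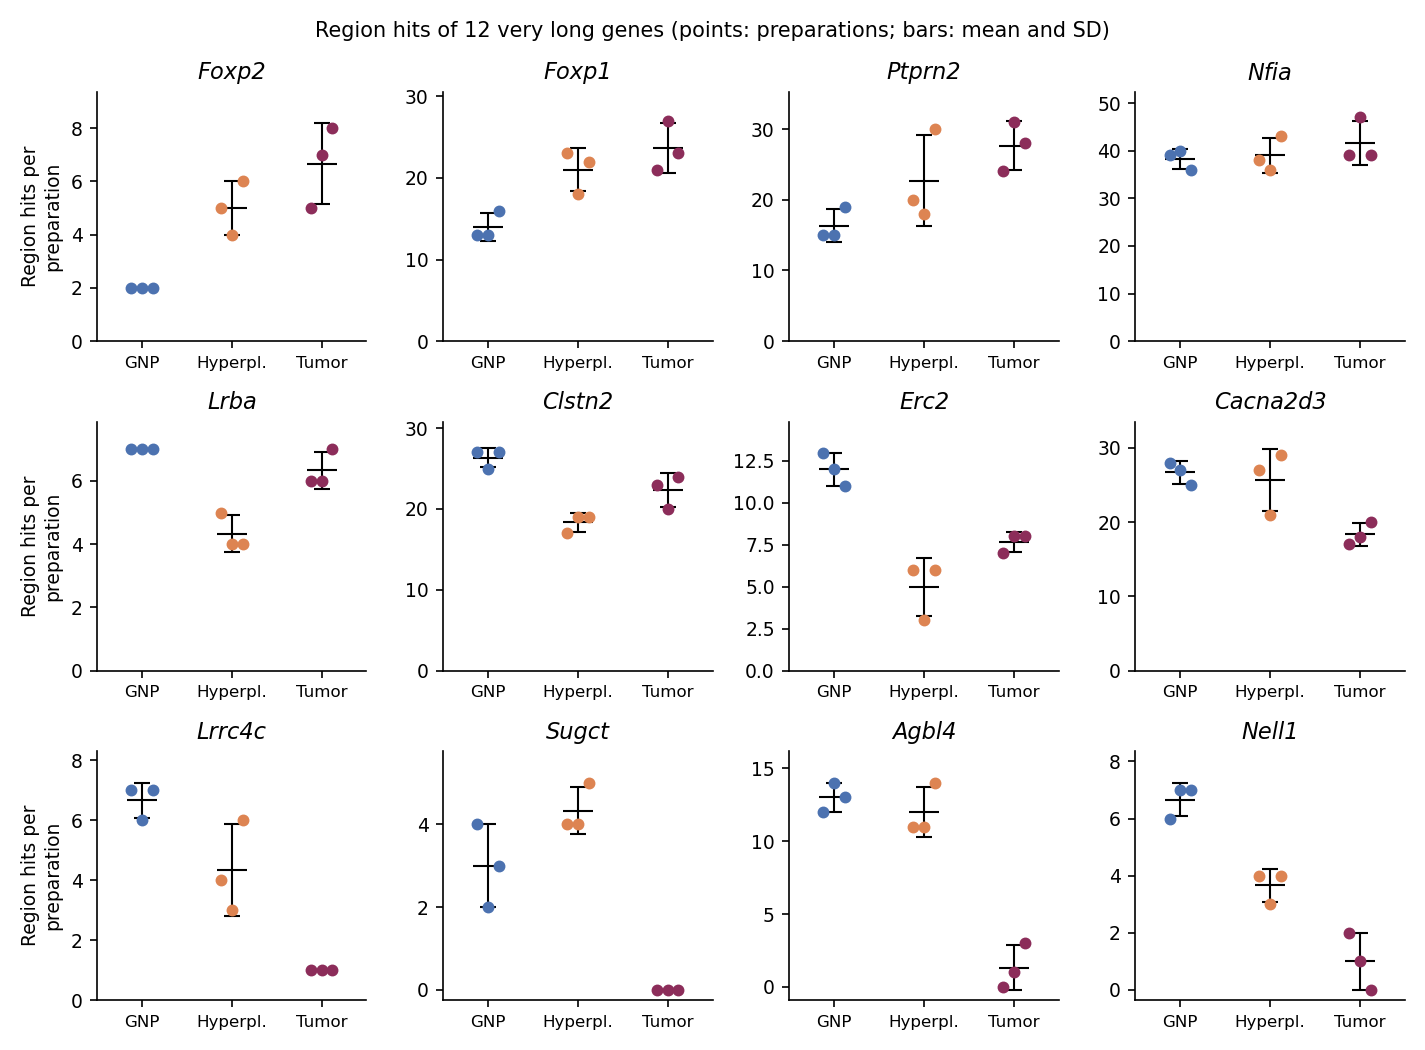
Region hits per preparation (y axis) in GNP, hyperplasia and tumor for 12 very long genes, with 1 point a preparation and the mean and SD of the 3 preparations in black. Sugct stands at 0 and Lrrc4c at 1 in every tumor preparation, Foxp2 stands at 2 in every GNP preparation and the Nfia groups overlap.

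Sugct and Lrrc4c, which fell in tumors, hold few regions over more than 800 kb each. Sugct, which encodes a mitochondrial transferase of glutarate metabolism (chr13:16857472-17694795, − strand), had 4, 2 and 3 region hits in GNP, 4, 4 and 5 in hyperplasia and 0 in each tumor preparation (limma adjusted p 0.00103 against GNP and 5.70e-04 against hyperplasia). All tumors were below every other preparation, and no fold is given against a group at 0. Its 3 regions were hit by 1, 2 and 6 GNP libraries and by 6, 3 and 4 of hyperplasia. Lrrc4c, a netrin-G ligand gene that organises synapses (chr2:96318169-97631672, + strand), had 7, 6 and 7 hits in GNP, 4, 3 and 6 in hyperplasia and 1 in each tumor preparation. Its log2 fold change was −2.25 against GNP (SE 0.21, limma adjusted p 0.00397) and −1.64 against hyperplasia (SE 0.21, adjusted p 0.0324). The groups did not overlap in either comparison. Of its 4 regions, 3 lay within 60 kb of each other near the far end of the gene, and these were hit by 6, 5 and 5 GNP libraries and by 1, 0 and 0 of tumors.

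The calls differed in how far they held. Leaving out any 1 preparation kept both Sugct calls (limma adjusted p up to 0.00830 and 0.00596) and the Lrrc4c call against GNP (up to 0.0234), while the Lrrc4c call against hyperplasia was lost in 7 of 9 such fits (0.00913 to 0.120). Foxp2 in tumors was lost without the second GNP preparation (0.0503), the third (0.0585) or the second tumor preparation (0.0676). With the 45000 highest-scoring summits no call of the 3 genes was made in either comparison. With the 15000 highest, none was called either: Lrrc4c had 0.142 and 0.299, Foxp2 had 0.221, and Sugct was under the minimum of 2 mean hits and was not fitted. Sugct was also not fitted with NFIA or NFIB libraries alone. With NFIB libraries only Lrrc4c was not called (limma adjusted p 0.152 and 0.212), and with regions hit by 5 libraries Foxp2 was not (0.0838). Counting all top summits in the gene body, with no need for 3 libraries, kept Sugct called in both comparisons. By that count Lrrc4c (0.0549 and 0.218) and Foxp2 (0.140) were not called. At 45000, limma adjusted p was 0.0702 and 0.114 for Sugct, 0.0530 and 0.150 for Lrrc4c and 0.109 for Foxp2. Of the 27 alternatives run against GNP, Sugct was fitted in 23, with an adjusted p of 2.36e-04 to 0.0702, Lrrc4c in 25 (3.58e-04 to 0.152) and Foxp2 in 25 (0.00397 to 0.502). The sign was unchanged in each of these fits.

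Agbl4, Nell1 and Nckap5 had tumor preparations below every GNP and hyperplasia preparation, and did not pass the test with the settings used here. Agbl4, which encodes a carboxypeptidase that trims glutamate chains from tubulin (chr4:110397649-111664324, + strand), had 12, 14 and 13 region hits in GNP, 11, 11 and 14 in hyperplasia and 0, 1 and 3 in tumors. The log2 fold change was −3.29 (SE 0.64, limma adjusted p 0.0782) against GNP and −3.17 (SE 0.64, adjusted p 0.123) against hyperplasia. The spread among the tumor preparations is wide on this scale, and without the third tumor preparation adjusted p was 0.0217 and 0.0380, or 0.0456 against GNP without the first. Of its 10 regions, 8 were hit by no tumor library, and 5 regions in its last 200 kb were hit by 6, 6, 3, 6 and 6 GNP libraries. Nell1, a secreted growth factor gene (chr7:49975350-50863289, + strand), had 6, 7 and 7 hits in GNP, 4, 3 and 4 in hyperplasia and 2, 1 and 0 in tumors (−2.54, SE 0.55, limma adjusted p 0.105 against GNP, and 0.0321 without the third tumor preparation). Nckap5 (chr1:125913636-126830796, − strand) had 11, 12 and 10, then 10 in each and then 3, 4 and 7 (−1.23, SE 0.26, limma adjusted p 0.102 against GNP and 0.187 against hyperplasia). Without the third tumor preparation these were 0.00419 and 0.00955. Against GNP, Agbl4 was called in 10 of the 27 alternatives, among them a pseudocount of 2 (limma adjusted p 0.0207), scaling to equal totals (0.0367) or within each chromosome (0.0393) and NFIB libraries only (0.0263), while its adjusted p reached 0.230 in others. Against hyperplasia it was called in 5 of 27. Nckap5 was called in 4 of 27 against GNP and in 2 of 27 against hyperplasia, and Nell1 in 3 of the 23 in which it was fitted.

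**Figure D5:**
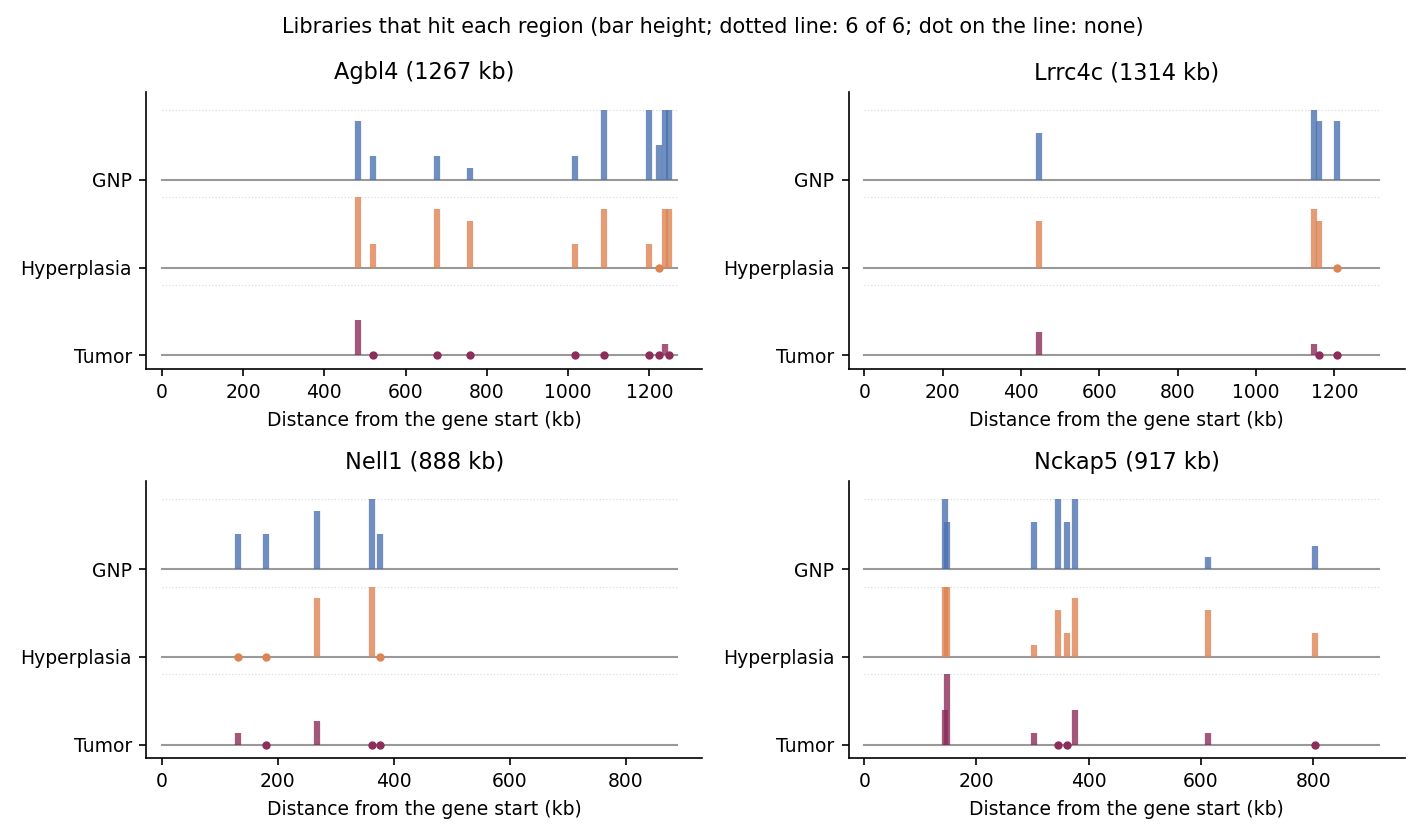
Number of libraries, of 6 a stage, that hit each region of Agbl4, Lrrc4c, Nell1 and Nckap5 (bar height above each stage's line; the dotted line is 6 libraries and a dot on the line is a region hit by none), by distance from the gene start in kb (x axis). In tumors 8 of the 10 Agbl4 regions are at 0, while the Nckap5 region 147 kb from the start keeps 6.

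Loss was uneven along these genes. In Nckap5 the region 147 kb from the start was hit by 4 GNP, 6 hyperplasia and 6 tumor libraries, and the region 346 kb from it by 6, 4 and 0. In Agbl4 the region 483 kb from the start was hit by 5, 6 and 3. The fewer hits went on beyond the far end of Nell1, where 8 regions in the next 500 kb had 10 to 12 hits in GNP, 5 to 11 in hyperplasia and 0 to 2 in tumors. On the other side of Nell1, 8 regions had 4 to 7, 5 to 7 and 5 to 9. Beside Sugct, 8 regions in the 500 kb upstream had 8 to 12 hits in GNP, 9 to 11 in hyperplasia and 10 to 13 in tumors, and 4 regions beyond its far end had 1 to 4, 1 to 3 and 0 to 3. Upstream of Lrrc4c 2 regions had 2 to 4 hits in GNP, 0 to 2 in hyperplasia and 0 to 1 in tumors, which is lower in tumors as in the gene, and its other side held none. Beside Agbl4, 6 regions upstream had 2 to 6, 4 to 5 and 1 to 5, and 1 region beyond its end had 0 to 2 in GNP and 0 in the later stages. Beside Nckap5, 10 regions upstream had 10 to 12, 7 to 11 and 11 to 14, and 10 beyond its far end had 15 to 18, 12 to 14 and 11 to 13.

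The full lists, below the top 30000, held some of the missing sites. A summit of any score lay in 6 to 10 of the 10 Agbl4 regions in GNP libraries (median 8), in 7 to 9 in hyperplasia (8.5) and in 0 to 6 in tumors (median 2). For Sugct the medians were 2, 2.5 and 0.5 of 3 regions, and for Lrrc4c 4, 3 and 1.5 of 4. For Nckap5 they were 8, 6 and 5 of 8. Lists differ in length, so that a summit of low score can be present in a long list and missing from a short one.

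Genes with higher values in tumors included Foxp1 and Ptprn2, which did not pass the test. Foxp1 (chr6:98925342-99522746) had 21, 27 and 23 hits in tumors against 13, 13 and 16 in GNP (log2 fold change 0.74, SE 0.14, limma adjusted p 0.0690). Its region 158 kb from the start, named above, and that at 586 kb, with 0 GNP, 4 hyperplasia and 5 tumor libraries, were among 6 of its 17 regions that no GNP library hit. Ptprn2 (chr12:116485695-117278167) had 15, 15 and 19 hits in GNP, 20, 18 and 30 in hyperplasia and 24, 31 and 28 in tumors. Its tumors did not overlap GNP (0.74, SE 0.21, limma adjusted p 0.159), while hyperplasia did. Pde4b had 10, 11 and 10 in tumors (limma adjusted p 0.0844 against GNP). On the lower side, Cacna2d3, an accessory calcium channel subunit gene, had 28, 27 and 25 hits in GNP and 17, 18 and 20 in tumors (−0.53, SE 0.13, limma adjusted p 0.115). Auts2, with 59, 59 and 58 in GNP against 45, 51 and 47 in tumors, also had separate groups (−0.30, SE 0.09, limma adjusted p 0.191).

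Of the very long genes with the smallest p in tumor against hyperplasia, Cacna1c, Ccser1 and Ctnna2 lie on chromosome 6 and had more hits in tumors. Cacna1c, the L-type calcium channel gene, had 18, 18 and 23 hits in hyperplasia and 31, 31 and 29 in tumors (log2 fold change 0.62, SE 0.11, limma adjusted p 0.0821). Ccser1 had 2, 3 and 4 against 6, 8 and 7 (1.13, SE 0.24, adjusted p 0.140), and Ctnna2, whose protein links cadherins to actin, 16, 12 and 17 against 23, 21 and 22 (0.55, SE 0.13, adjusted p 0.191). Lrba had 5, 4 and 4 against 6, 6 and 7 (0.50, SE 0.09, limma adjusted p 0.108). None of these passed the test. All 15 very long genes of chromosome 6 that were tested had a positive fold change in this comparison (median 0.41), and 14 of 15 in tumor against GNP (median 0.32), where all genes of chromosome 6 had medians of 0.33 and 0.28. In hyperplasia against GNP 5 of the 15 were positive (median −0.18). Of the regions gained inside very long genes, 13 of 65 in tumor against GNP and 11 of 32 in tumor against hyperplasia lay on chromosome 6 (20% and 34.4%, where 14.5% and 15.2% of all gained regions did), and 1 of 55 in hyperplasia against GNP (1.82%, where 5.52% of all did).

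Scaling each chromosome to the same total lowered these values and left Foxp2 called. The log2 fold change became 0.32 for Cacna1c, 0.85 for Ccser1 and 0.25 for Ctnna2 (tumor against hyperplasia, limma adjusted p 0.300, 0.211 and 0.415) and 0.45 for Foxp1 (tumor against GNP, 0.0659). Foxp2, also on chromosome 6, kept 1.23 with an adjusted p of 0.0146 in tumor against GNP and 1.14 with 0.0213 in hyperplasia against GNP. The part of chromosome copy number in these values was not tested.

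By role, few genes of any list passed the test. Clstn2 and Lrba, called in hyperplasia against GNP, are in none of the lists, although Clstn2 is a gene of postsynaptic membranes. Of 17 tested transcription and RNA regulators, 1 (Foxp2) rose in both comparisons with GNP and none fell, with median log2 fold changes of 0.02 in hyperplasia against GNP and 0.08 in tumor against GNP. Of 39 adhesion and synapse genes, 1 (Lrrc4c) fell in tumors against either stage, and the medians were −0.05, 0.13 and 0.06 over the 3 comparisons. Of 26 phosphatase, kinase and scaffold genes, 1 (Sugct, placed in this list, though its enzyme is of none of these kinds) fell in tumors against either stage, with medians of −0.04, 0.04 and 0.11. None of 17 axon guidance genes passed, where 12 were negative and 5 positive in hyperplasia against GNP (median −0.12) and 11 negative and 6 positive in tumor against GNP (median −0.24). In tumor against hyperplasia 7 of them were negative and 10 positive (median 0.04). Of all 179 very long genes 102, 91 and 74 were negative and 76, 88 and 103 positive over the 3 comparisons. None of 18 channel and receptor genes and none of 26 fragile site genes passed in any comparison. Their medians ran from −0.00 to 0.08 and from −0.06 to 0.09, beside −0.05 to 0.04 for all 179 very long genes.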

How the data were processed

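CUT&Tag for NFIA and NFIB was run on 18 libraries of 3 stages, 6 a stage. The submitters' processing notes name Bowtie2, MACS2 and build mm10, without versions. Use of a control library is not given in the sources used. The authors deposited lists of 1-base summits, called per library, with the −log10 p- or q-value of the authors' peak caller as score (lowest 2.00). Stage and target follow the sample titles. For 6 of 18 libraries the deposited name and the title disagree on the target.

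Per library, the top 30000 autosomal summits by score were taken (ties by chromosome and start; up to 20.4% of the top summits of a library shared the last score), widened by 100 bp, merged, and kept as a region with 3 or more libraries. Gene spans came from the RefSeq table of assembly GRCm38.p6 (mm10), with 20665 protein-coding genes. It gives no exons, and strand came from the promoter table for 169 of the 216 very long genes. Coordinates are 1-based. The planned motif search over regions was not run.

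Genes with a mean of at least 2 region hits were fitted with limma 3.58.1 in R 4.3.3 (trend, empirical Bayes) on log2(hits + 0.5), on stage alone, adjusted by Benjamini-Hochberg over all genes (threshold 0.05). Shares of hits were tested over preparations with exact permutation tests (SciPy 1.17.1). In simulated data with the mean hits of the same 3100 genes, the tumor against GNP fit recovered 7.00% of genes changed by 2-fold and 78.0% of those changed by 4-fold, with 2 false calls. For hyperplasia against GNP these were 13.0% and 60.0%, and for tumor against hyperplasia 14.0% and 65.0%, with 0 and 5 false calls. Simulated counts had at least Poisson spread and no upper limit. Real hits are limited to 2 per region and preparation, so these rates need not hold for them. The members and gene lists were chosen with earlier results of these data known, and genes named in the text are those called, the 8 with the smallest p a comparison, those with most or fewest regions, the richest of each list, and Agbl4, Sugct and Ptprn2. Single regions named are the 3 with the largest difference in libraries per comparison and direction and the 5 with the best poorest rank, with the genes that hold them. Magi1, Magi2 and Pcdh9, with the printed windows, were chosen after their values were seen. Same-numbered preparations of different stages correlated at −0.02 to 0.09, so the numbers do not pair them. Alternatives included other list depths, widths, scalings, single targets and left-out libraries.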

Additional observations from a re-analysis of the deposited data

Results flagged for a closer look

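The second NFIA library of hyperplasia hit 783 regions inside very long genes, and its gap to the nearest of the 6 hyperplasia libraries was larger than Dixon's 95% limit. The first NFIA library of tumors hit 1 region of Foxp2, and it stood apart from the other tumor libraries by the same measure. Of 21 groups checked, chance flags about 1 in 20. Foxp2 was not called with NFIA libraries only (limma adjusted p 0.358 in hyperplasia against GNP and 0.502 in tumor against GNP).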

How the results depend on the processing

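The signs of all called very long genes held in every alternative in which they were fitted, and the number of calls moved with nearly every choice. Which very long genes were called changed too, also where their number did not. The cause was not tested where no reason is given. Genes called in all (49 between GNP and hyperplasia, 49 between GNP and tumor and 20 between hyperplasia and tumor) and very long genes called (3, 3 and 2) are given below in that order of comparisons.
With the 15000 highest-scoring summits 6 genes were called in the third comparison, and 0 very long genes in the second and 0 in the third. In the first the count stayed at 3, with Clstn2, Galntl6 and Rarb. With 45000, 9, 6 and 6 genes were called. The very long ones were 2 in the first (Cpq and Dlg2), 1 in the second (Dlg2) and 0 in the third. NFIA libraries only gave 1, 1 and 0 genes and 0, 0 and 0 very long ones. NFIB libraries only gave 17, 11 and 7 genes. The very long ones were 1 in the first (Foxp1), 3 in the second (Agbl4, Foxp1 and Foxp2) and 1 in the third (Agbl4). Regions hit by 5 libraries gave 29 and 13 genes in the first and the third and 0 very long genes in the first. All top summits in the gene body gave 1, 21 and 2 genes, and 0 and 1 (Sugct) very long genes in the first and the third. In the second the count stayed at 3, with Agbl4, Foxp1 and Sugct. Without a filter on low values 185, 202 and 107 genes were called, 7 and 9 very long ones in the first and the second. Scaling to equal totals gave 11 genes in the third and 9 very long genes in the second, and scaling within each chromosome 10 and 5. In the first, both scalings called Erc2, Foxp1 and Foxp2. A pseudocount of 2 gave 5 very long genes in the second. Without the second NFIA library of hyperplasia 5 very long genes were called in the first and 5 in the second. List length as a covariate gave 31 genes and 0 very long ones in the first.
The replicate block, with numbers that do not pair the preparations, gave 29 genes and 0 very long genes in the first comparison and 1 very long gene in the third. The title date as a block gave 30 genes and 0 very long ones. Chosen after seeing the data, a mean of at least 8 hits gave 1, 6 and 9 genes, with 1 very long gene in the first (Erc2). In the second 4 were very long (Agbl4, Foxp1, Nckap5 and Ptprn2), and in the third 3 (Agbl4, Cacna1c and Nckap5). Foxp2, Lrba, Lrrc4c and Sugct were under this limit and not fitted. Leaving out genes with no spread within stages gave 4 genes in the third and 8 very long genes in the second.
Leaving out 1 preparation gave 20 to 51, 31 to 67 and 15 to 39 genes, and 0 to 2, 2 to 7 and 1 to 4 very long ones.
Regions gained inside very long genes (55, 65 and 32) became 34, 32 and 19 with 15000 summits and 9, 17 and 3 when all 6 libraries against none were required, and those lost (74, 86 and 35) became 44, 42 and 8, and 14, 16 and 7. Among all regions, those gained (905, 957 and 508) became 524, 589 and 351, and 156, 173 and 41. Those lost among all (1162, 1065 and 452) became 733, 626 and 295, and 194, 152 and 29. With 45000 summits 134 inside very long genes were lost in the first comparison (4.11%, against 2.63% of all regions). NFIA libraries only gave 25 gained in the first (1.15% against 1.34%) and 21 lost in the third (0.964% against 0.736%). Without the second NFIA library of hyperplasia 86 were gained in the first (3.95% against 3.63%) and 60 lost in the third (2.75% against 2.21%). Without chromosome 6, 21 were gained in the third (1.04% against 1.09%). With 1 preparation left out, where 3 of 4 libraries are enough, 74 to 125, 87 to 139 and 51 to 78 were gained and 103 to 140, 117 to 149 and 46 to 89 lost. Counts among all regions rose too, to 1336 to 2224, 1412 to 2236 and 880 to 1513 gained. Of all regions 1640 to 2204, 1695 to 2143 and 825 to 1526 were lost.
The percent of regions hit by all 18 libraries was 13.8 inside very long genes and 18.9 among the others when 5 libraries were needed, and 13.5 with 15000 summits and 15.8 with 250 bp among the others. The difference in share of hits between stages changed sign with NFIB libraries only (0.0560 and 0.0581 percentage points for the first and the second). It also did so with genes of 800 kb or longer (−0.0594 for the third) and without the first tumor preparation (0.00102 for the second). None of its exact permutation tests could pass, since the smallest p that 3 against 3 preparations allow is 0.1. With all preparations kept, that p was reached with NFIA libraries only (−0.228 for the first). It was also reached without chromosome 6 and with 800 kb (−0.0644 and −0.140 for the second), and other settings gave larger p. These tests therefore cannot show that there is no difference. The difference ran from −0.178 to −0.0230, −0.0383 to 0.00102 and 0.00258 to 0.158 with 1 preparation left out. Pde4b in hyperplasia against GNP changed sign with 45000 summits (−0.26). Without reads, depth is unknown, and a region without a top summit may be bound below the lists' limit.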
